A study of Sus scrofa with 24 samples.

Results

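Gluconeogenesis is the making of glucose from lactate, glycerol and amino acids, and in the liver it keeps blood glucose up between meals. The 7 genes described here encode 6 enzymes of that route and 1 transcriptional coactivator of it, namely PC, PCK1, PCK2, MDH1, FBP1, G6PC and PPARGC1A. They were given by name as a list of genes of the route, and every probe that the array's annotation assigns to one of them was taken. The rule uses no measured value, although the list was drawn up with earlier results of these data known. All 7 were on the array, out of 4661 genes that could be named, and 22 of the 43603 probes measured them. PCK1 had 5 probes, MDH1 had 4, PCK2, PC and FBP1 had 3 each, and G6PC and PPARGC1A had 2 each.

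The livers came from 24 pigs (Sus scrofa) of 115 kg body weight, 1 array per pig, in 3 groups of 8. Residual feed intake (RFI) is the feed an animal eats beyond what its growth and maintenance predict, so a low RFI animal is the more feed-efficient one. The restricted high RFI group (RFIplR) belonged to the line selected for high RFI and received feed at the level of the low RFI line. The high RFI group (RFIpl) was of the same line and was fed ad libitum. The low RFI group (RFIneg) belonged to the line selected for low RFI and was also fed ad libitum. The labels name no allele or agent for any group. Breed, sex, age and the time between the last meal and sampling are not given in the sources used here.

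The route runs from the mitochondrion to the cytosol and the endoplasmic reticulum. Pyruvate carboxylase (PC) makes oxaloacetate from pyruvate, and malate dehydrogenases, of which MDH1 is the cytosolic one, interconvert oxaloacetate and malate so that the carbon can leave the mitochondrion. Phosphoenolpyruvate carboxykinase, cytosolic (PCK1) or mitochondrial (PCK2), then makes phosphoenolpyruvate. Fructose-1,6-bisphosphatase (FBP1) and the catalytic subunit of glucose-6-phosphatase (G6PC) bypass the irreversible steps of glycolysis, and the last one releases free glucose. In rodent liver, fasting, glucagon and glucocorticoids raise PCK1 and G6PC transcripts, insulin lowers them, and the coactivator PGC-1 alpha (PPARGC1A) takes part in the fasting response.

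The probes are 60 bases long, and their sequences show what each signal reads. The cytosolic and the mitochondrial carboxykinase are the closest relatives among the 7 genes, and the probes in the following pair align with each other. Capitals mark bases that are identical between the probes when the second is shifted by 2 bases.
PCK1 (A_72_P441080): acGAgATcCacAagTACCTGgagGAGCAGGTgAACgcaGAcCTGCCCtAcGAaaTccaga
PCK2 (A_72_P607328): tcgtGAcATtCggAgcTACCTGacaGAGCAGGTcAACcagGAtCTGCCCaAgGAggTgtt
Of the 58 aligned bases 35 are identical (60.3%), and the longest unbroken identical run is 8 bases. The levels of the 2 carboxykinases also behaved differently, as described below.

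The brightest PCK1 probe, A_72_P637186, shares a run of 22 bases with A_72_P593929 and the first 19 of them with A_72_P098696, so these 3 of the 5 PCK1 probes read overlapping sequence. The run is given because it limits how far those probes count as separate evidence.
PCK1 shared run: TACTGTGGTTCCCTGCCTTTAC
The next probes are shown as the ones designed on RefSeq accessions for the remaining enzymes for which a further probe gave values close to those of the brightest.
G6PC (A_72_P440076): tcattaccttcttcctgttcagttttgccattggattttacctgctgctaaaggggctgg
PC (A_72_P303224): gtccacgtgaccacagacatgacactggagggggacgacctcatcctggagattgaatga
FBP1 (A_72_P441089): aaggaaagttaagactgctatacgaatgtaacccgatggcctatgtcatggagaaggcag
MDH1 (A_72_P559629): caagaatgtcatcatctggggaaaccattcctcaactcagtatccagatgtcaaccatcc

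The share of spots well above background ran from 63.2% to 72.7% per array, with the lowest shares on slide 3 of the 6 slides. Arrays correlated with each other at 0.971 to 0.991. All 8 measured hepatocyte markers of the 10 listed, ALB, TTR, APOA1 and APOB among them, were well above background on all 24 arrays. Their mean level was 8.16 ± 0.05 in restricted high RFI, 8.19 ± 0.10 in high RFI and 8.15 ± 0.05 in low RFI livers (log2, SD, n = 8 each), so the tissue carried the markers of its label in each group. Precision is limited by the 8 arrays of a group.

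All 22 probes were well above background on all 24 arrays, and none was saturated. Levels are given as log2 of the scanner's processed signal minus the 75th percentile of the array, for the brightest probe of each gene, so they can be compared between pigs but not between genes. Differences are differences of group means on that log2 scale, tested with limma over 29665 probes with Benjamini-Hochberg adjustment, and a probe was called at an adjusted p below 0.05.

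No gluconeogenesis probe was called in any comparison. The count was 0 of 22 in high minus low RFI, where 0.162% of all probes were called, 0 of 22 in restricted high minus high RFI, where 0% were called, and 0 of 22 in restricted high minus low RFI, where 0.229% were called. With so few calls on the whole array a count of 0 among 22 probes is near the background. A moderated F test over the 3 groups called 0 of the 22 probes as well, against 0.212% of all probes. At an unadjusted p below 0.05 the probes passing were 4 in high minus low RFI (9.64% of all probes), 3 in restricted high minus high RFI (5.37%) and 7 in restricted high minus low RFI (12.8%). Those 4 were all MDH1, those 3 were all PC, and those 7 were the 4 MDH1 probes, both G6PC probes and 1 PPARGC1A probe, all with positive differences. Probes of 1 gene read the same transcript, so these counts stand for 1, 1 and 3 genes.

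**Figure D1:**
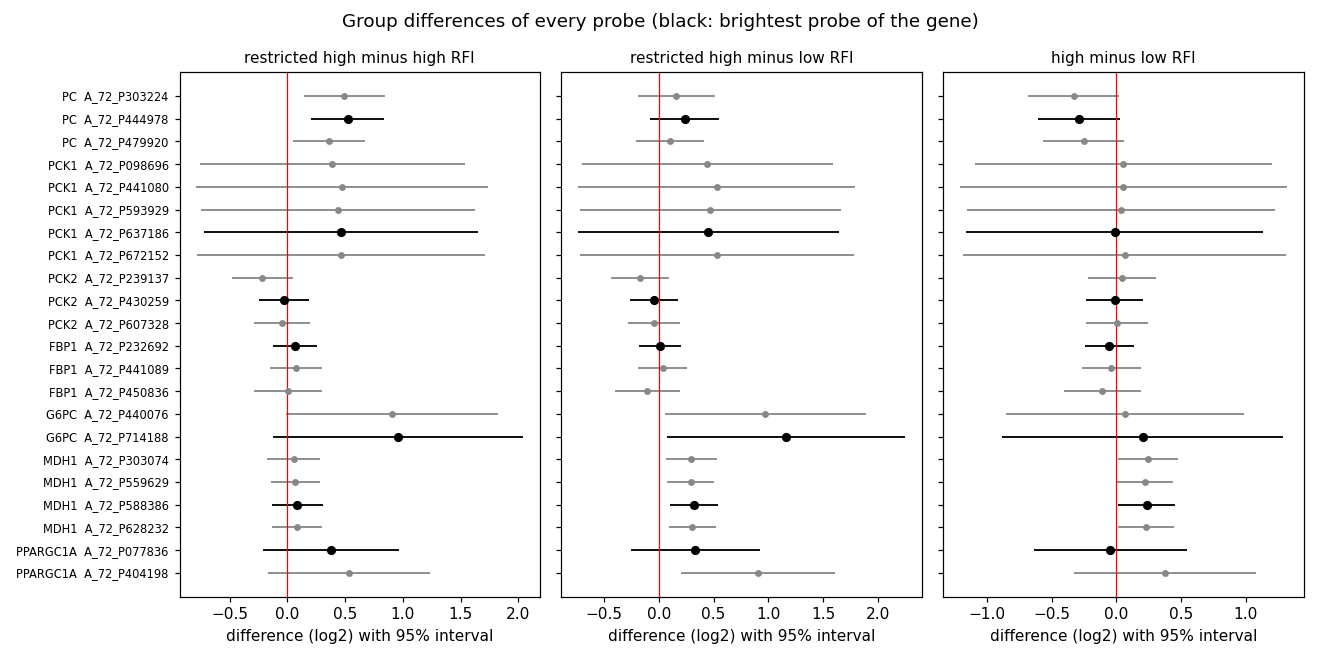
Difference of each of the 22 probes in the 3 comparisons, on the log2 scale with its 95% interval from limma; black points are the brightest probe of a gene and the red line is 0. Intervals of PCK1 and G6PC are several times wider than those of PCK2, FBP1 and MDH1. The probes of a gene lie farthest apart in PPARGC1A in both comparisons with low RFI. Smaller gaps are seen in G6PC and for A_72_P239137 (PCK2), A_72_P479920 (PC) and A_72_P450836 (FBP1).

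Pyruvate carboxylase had the lowest unadjusted p of the 7 genes for feed restriction within the high RFI line. Its level had a lowest value of 5.16, a median of 5.57 and a highest value of 5.87 in restricted high RFI livers. In high RFI livers the corresponding values were 4.77, 4.97 and 5.21. All 8 restricted pigs lay above the mean of the high RFI pigs and 7 of them above the highest high RFI pig, so the groups overlapped only through restricted pig 1. The mean was 5.52 ± 0.24 in restricted high RFI and 5.002 ± 0.17 in high RFI livers (SD, n = 8 each), a difference of 0.52 ± 0.15 (SE, 1.44-fold, 95% interval 0.21 to 0.84). Its unadjusted limma p was 0.00235 and its adjusted p 0.715, so PC was not called. The difference was 0.49 with the slide and 0.52 with the scan day as a block, 0.64 on the arrays of the first scan day and 0.40 on those of the second.

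Low RFI livers overlapped both of these ranges in PC, with a lowest value of 4.65, a median of 5.35, a highest value of 5.81 and an SD of 0.46. The difference was -0.29 ± 0.15 for high minus low RFI (SE, limma adjusted p = 0.572) and 0.24 ± 0.15 for restricted high minus low RFI (SE, limma adjusted p = 0.557). The order of the PC means was therefore restricted high RFI, low RFI, high RFI, with no neighbouring pair called. The other PC probes gave the same order, with 0.49 ± 0.17 (A_72_P303224, printed above) and 0.36 ± 0.15 (A_72_P479920) for restricted high minus high RFI (SE, limma adjusted p = 0.802 and 0.910). The 3 PC probes correlated at 0.797 to 0.972 over the pigs.

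**Figure D2:**
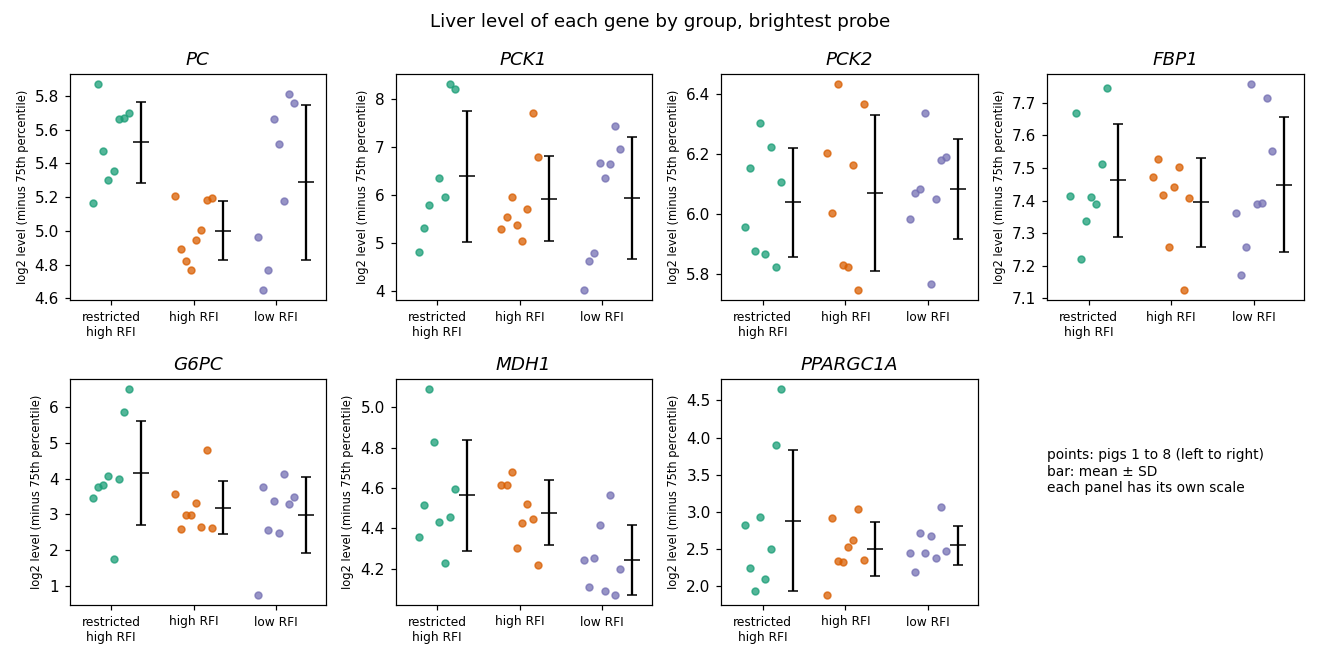
Level of each gene in each pig (log2 processed signal minus the 75th percentile of the array, brightest probe), with restricted high RFI left, high RFI in the middle and low RFI right; bars are mean ± SD, and each panel has its own scale. Restricted pigs 7 and 8 stand at the top of PCK1, G6PC and PPARGC1A, while PC separates most of the restricted from the high RFI pigs.

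MDH1 gave the lowest adjusted p of the 7 genes, in the comparison of lines at the same feeding level. Its level had a lowest value of 4.23, a median of 4.49 and a highest value of 5.09 in restricted high RFI livers. In high RFI livers these were 4.22, 4.49 and 4.68, and in low RFI livers 4.07, 4.22 and 4.56. Both groups of the high RFI line thus stood above the low RFI line in their medians, and the ranges overlapped. The means were 4.56 ± 0.28 in restricted high RFI, 4.48 ± 0.16 in high RFI and 4.24 ± 0.17 in low RFI livers (SD, n = 8 each).

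The MDH1 difference was 0.32 ± 0.11 for restricted high minus low RFI (SE, 1.25-fold, limma adjusted p = 0.200) and 0.23 ± 0.11 for high minus low RFI (SE, 1.18-fold, limma adjusted p = 0.481). In each of these comparisons 7 of the 8 pigs of the high line lay above the low RFI mean. Restricted high minus high RFI differed by 0.09 ± 0.11 (SE, limma adjusted p = 0.973, 95% interval -0.14 to 0.31). With the slide as a block, the restricted high minus low RFI difference was 0.37 with a limma adjusted p of 0.0747, still short of the threshold. It was 0.35 with the scan day as a block, 0.37 on the first scan day and 0.35 on the second. The 4 MDH1 probes gave 0.29 to 0.32 for restricted high minus low RFI and correlated at 0.959 to 0.982. The brightest of them shares a run of 35 bases with A_72_P628232, so these 2 are not separate readings.

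The 2 carboxykinases differed in how much they varied between pigs. PCK1 spanned a 19.5-fold range over the pigs, and 99.2% of all probes kept had a smaller SD within groups. PCK2 spanned a 1.61-fold range, and 28.7% of probes had a smaller SD. The median SD within groups over all probes was 0.27, against 1.18 for PCK1 and 0.21 for PCK2.

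PCK1 had a lowest value of 4.82, a median of 5.96 and a highest value of 8.31 in restricted high RFI livers (n = 7, since the scanner marked the spot of restricted pig 4 as an outlier). The values were 5.04, 5.63 and 7.71 in high RFI livers and 4.03, 6.51 and 7.45 in low RFI livers. Restricted pigs 7 (8.31) and 8 (8.22) were the highest 2 of all pigs, high RFI pig 7 (7.71) the next, and low RFI pigs 1, 2 and 3 the lowest (4.03, 4.64 and 4.79). On the PCK1 probe A_72_P098696, where it was measured, restricted pig 4 had 5.66, close to its group's median of 5.68 on that probe.

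Group means of PCK1 were 6.40 ± 1.36 in restricted high RFI (SD, n = 7), 5.93 ± 0.89 in high RFI and 5.95 ± 1.27 in low RFI livers (SD, n = 8 each). The difference was 0.47 ± 0.57 for restricted high minus high RFI, 0.45 ± 0.57 for restricted high minus low RFI and -0.01 ± 0.55 for high minus low RFI (SE, limma adjusted p = 0.973, 0.790 and 0.997). The interval of the last one ran from -1.16 to 1.13, so a difference of about that size in either direction is not excluded by these arrays. Without the 3 pigs with the highest PCK1, a setting chosen after seeing the data, the first of these was -0.03 and the second -0.29. The pigs left out, restricted pigs 7 and 8 and high RFI pig 7, were picked on PCK1 itself, and no low RFI pig was among them. The removal by itself therefore lowers the PCK1 mean of the restricted group. The 5 probes correlated at 0.992 to 0.999, so the spread between pigs was common to all 5.

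PCK2 had medians of 6.03 in restricted high RFI, 6.08 in high RFI and 6.08 in low RFI livers, and all 24 pigs lay between 5.75 and 6.43. Its differences were -0.03 ± 0.11 for restricted high minus high RFI, -0.04 ± 0.11 for restricted high minus low RFI and -0.01 ± 0.11 for high minus low RFI (SE, limma adjusted p = 0.995, 0.898 and 0.986). The 95% interval of high minus low RFI was -0.23 to 0.21. Its 3 probes correlated less well than those of the other genes, at 0.499 to 0.879, and the dimmest, A_72_P239137, gave -0.22 ± 0.13 for restricted high minus high RFI (SE, limma adjusted p = 0.940).

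On the brightest probes FBP1 was the least variable of the 7 genes. Its level had a lowest value of 7.22, a median of 7.41 and a highest value of 7.75 in restricted high RFI livers, 7.13, 7.43 and 7.53 in high RFI livers, and 7.17, 7.39 and 7.76 in low RFI livers. The groups lay over each other throughout. It spanned a 1.55-fold range, and 17.3% of probes kept had a smaller SD within groups. The differences were 0.07 ± 0.09 for restricted high minus high RFI, 0.01 ± 0.09 for restricted high minus low RFI and -0.06 ± 0.09 for high minus low RFI (SE, limma adjusted p = 0.976, 0.967 and 0.889). The intervals of all 3 lay between -0.25 and 0.26. The other FBP1 probes varied more, with SDs within groups of 0.21 (A_72_P441089) and 0.29 (A_72_P450836) against 0.18. On A_72_P450836 restricted high minus low RFI was -0.10 ± 0.14 (SE, limma adjusted p = 0.810), opposite in sign to the brightest probe.

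G6PC had the widest range of the 7 genes, 53.0-fold over the 24 pigs. Its level had a lowest value of 1.77, a median of 3.90 and a highest value of 6.50 in restricted high RFI livers. The values were 2.60, 2.99 and 4.79 in high RFI livers, and 0.77, 3.34 and 4.13 in low RFI livers. Restricted pigs 8 (6.50) and 7 (5.84) were the highest, high RFI pig 7 (4.79) came next, and low RFI pig 1 (0.77) and restricted pig 5 (1.77) were the lowest. The groups overlapped, with 2 restricted pigs above the highest low RFI pig and 1 low RFI pig below the lowest restricted pig.

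Means of G6PC were 4.15 ± 1.46 in restricted high RFI, 3.19 ± 0.73 in high RFI and 2.98 ± 1.05 in low RFI livers (SD, n = 8 each). The difference was 1.16 ± 0.53 for restricted high minus low RFI (SE, 2.24-fold, 95% interval 0.08 to 2.25, limma adjusted p = 0.349) and 0.96 ± 0.53 for restricted high minus high RFI (SE, 1.94-fold, limma adjusted p = 0.926). In both, 7 of 8 restricted pigs lay above the mean of the other group. Without the 3 pigs with the highest PCK1 these differences were 0.49 and 0.51. Those pigs also had the highest 3 levels of G6PC and were mostly restricted, so leaving them out by itself lowers the restricted mean. With all pigs the differences were 1.24 and 1.08 with the slide as a block, and 1.28 and 1.01 with the scan day. On the first scan day alone they were 2.17 and 1.46, and on the second 0.34 and 0.32. The first day held 5 restricted, 4 high and 3 low RFI pigs, and the second 3, 4 and 5. Restricted pig 8 and low RFI pig 1, the highest and the lowest of all pigs in G6PC, were both on the first day. Whether the differences depend on the day was not tested. High minus low RFI differed by 0.20 ± 0.53 (SE, limma adjusted p = 0.937). The second probe, A_72_P440076, gave 0.97 ± 0.44 and 0.90 ± 0.44 for the first and second of these comparisons (SE, limma adjusted p = 0.356 and 0.925) and correlated with the first at 0.974.

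PPARGC1A, the coactivator, had a lowest value of 1.93, a median of 2.66 and a highest value of 4.65 in restricted high RFI livers, 1.89, 2.44 and 3.04 in high RFI livers, and 2.20, 2.46 and 3.07 in low RFI livers. Restricted pigs 8 (4.65) and 7 (3.90) stood above every other pig, and the remaining 22 pigs lay between 1.89 and 3.07. The means were 2.88 ± 0.95 in restricted high RFI, 2.50 ± 0.36 in high RFI and 2.55 ± 0.27 in low RFI livers (SD, n = 8 each). The difference was 0.38 ± 0.29 for restricted high minus high RFI, 0.33 ± 0.29 for restricted high minus low RFI and -0.05 ± 0.29 for high minus low RFI (SE, limma adjusted p = 0.959, 0.672 and 0.979). Without the 3 pigs with the highest PCK1 the first was -0.01 and the second -0.13. Restricted pigs 7 and 8, the highest in PPARGC1A too, are among those pigs, so their removal by itself lowers the restricted mean.

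The dimmer PPARGC1A probe, A_72_P404198, gave larger values of 0.91 ± 0.34 for restricted high minus low RFI and 0.37 ± 0.34 for high minus low RFI (SE, limma adjusted p = 0.251 and 0.776), so the probes of this gene disagreed on the second comparison in sign. They correlated at 0.832 over the pigs.

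Of the 7 genes 6 had a positive difference in restricted high minus high RFI and in restricted high minus low RFI, with medians of 0.38 and 0.32, and PCK2 was the exception in both. Over all 29665 probes the medians were -0.01 and -0.01, and 46.9% and 48.7% of probes lay above 0. In high minus low RFI 2 of the 7 genes, G6PC and MDH1, lay above 0, with a median of -0.01, against 51.0% of all probes. That count depended on the probe chosen. With the mean over all probes of a gene 5 of the 7 genes lay above 0, with a median of 0.04, and 13 of the 22 probes did. The 2 comparisons that involve the restricted group share its arrays, so their counts are not separate evidence. With normexp background correction PCK2 lay above 0 in both, and 6 of the 7 genes lay above 0 in high minus low RFI, PC being the exception. That correction moved the median of all probes by -0.08, -0.03 and -0.10 in high minus low, restricted high minus high and restricted high minus low RFI. Without the 3 pigs with the highest PCK1, 3 of the 7 genes lay above 0 in each comparison with the restricted group, with medians of -0.01 and -0.02, and PCK1, FBP1 and PPARGC1A then lay below 0 in both. That setting takes pigs at the top of PCK1, G6PC and PPARGC1A mostly from the restricted group. The choice of pigs by itself thus lowers these genes there.

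**Figure D3:**
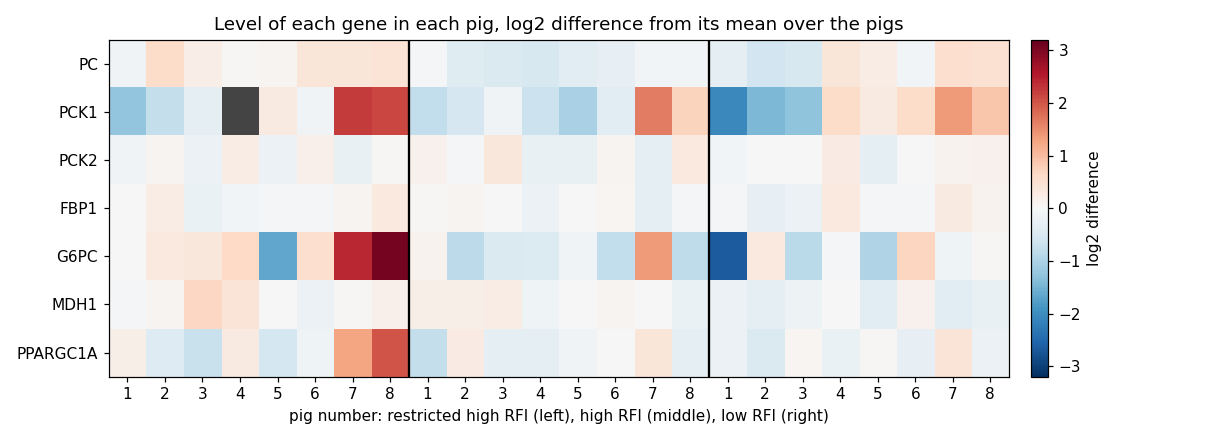
Level of each gene in each pig as the log2 difference from that gene's mean over the pigs, with restricted high RFI pigs left, high RFI in the middle and low RFI right; the dark grey cell is the PCK1 spot left out. PCK1, G6PC and PPARGC1A are high together in restricted pigs 7 and 8 and, less so, in high RFI pig 7, while PCK2, FBP1 and MDH1 stay near their means.

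The 7 genes did not vary together as 1 group. Of the 21 pairs, 5 had a Pearson correlation over the pigs with a permutation p below 0.05 after adjustment over the 21, and all 5 were positive. They were G6PC with PCK1 (r = 0.65, adjusted permutation p = 0.00749, n = 23), G6PC with PPARGC1A (r = 0.64, adjusted permutation p = 0.00853, n = 24), PCK1 with PPARGC1A (r = 0.62, adjusted permutation p = 0.00749, n = 23), PCK1 with PC (r = 0.61, adjusted permutation p = 0.00853, n = 23) and PC with FBP1 (r = 0.63, adjusted permutation p = 0.00749, n = 24). On deviations from the group means the number passing was also 5. PCK2 and MDH1 were in none of these pairs, although with normexp background correction each was in a passing pair with FBP1.

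Among PCK1, G6PC and PPARGC1A the strength of the link depended on how it was measured. By rank, G6PC with PCK1 had rho = 0.38, G6PC with PPARGC1A 0.21 and PCK1 with PPARGC1A 0.38 (adjusted permutation p = 0.270, 0.689 and 0.270). On deviations from the group means rho was 0.52, 0.25 and 0.47 for these pairs (adjusted permutation p = 0.0836, 0.584 and 0.133). On deviations from group and slide means, added after seeing the data, rho was 0.60, 0.59 and 0.71. Leaving out the 2 pigs farthest from the median of the first gene of each pair gave r = 0.44, 0.48 and 0.28. With the 2 pigs farthest from the median of the second gene left out instead, r was 0.40, 0.10 and 0.28. Leaving out restricted pigs 7 and 8 and high RFI pig 7 gave r = 0.25, -0.05 and 0.13. These pigs were picked as the highest in PCK1, so the top of its range was cut, which can lower r. The same removal left PCK1 with PC at r = 0.62 and PC with FBP1 at 0.63. Within groups, G6PC with PCK1 had r = 0.73 in restricted high RFI (n = 7), 0.53 in high RFI and 0.60 in low RFI livers (n = 8 each). PCK1 with PPARGC1A had 0.80 in restricted high RFI (n = 7), 0.47 in high RFI and 0.43 in low RFI livers (n = 8 each). G6PC with PPARGC1A had r = 0.87 in restricted high RFI, 0.25 in high RFI and -0.15 in low RFI livers (n = 8 each). On the arrays of the first and second scan day, G6PC with PCK1 had r = 0.73 (n = 11) and 0.54 (n = 12), G6PC with PPARGC1A 0.72 and 0.67 (n = 12 each), and PCK1 with PPARGC1A 0.77 (n = 11) and 0.68 (n = 12).

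PCK1 with PC held by rank as well, at rho = 0.63 (adjusted permutation p = 0.0313, n = 23). Its r was 0.54 without the 2 pigs farthest from the PCK1 median and 0.62 without the 3 pigs with the highest PCK1. Within groups r was 0.39 in restricted high RFI (n = 7), 0.52 in high RFI and 0.89 in low RFI livers (n = 8 each), and it was 0.62 (n = 11) and 0.68 (n = 12) on the scan days. In low RFI livers, pigs 1, 2 and 3 had the lowest 3 levels of both genes within the group.

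PC with FBP1 had rho = 0.55 (adjusted permutation p = 0.0693, n = 24) and r = 0.52 without the 2 pigs farthest from the PC median. On deviations from the group means its rho was 0.62 (adjusted permutation p = 0.0262, n = 24). Its r was 0.64 in restricted high RFI and 0.89 in low RFI livers but -0.11 in high RFI livers (n = 8 each), so it did not hold within every group. On the scan days it was 0.64 and 0.63 (n = 12 each).

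**Figure D4:**
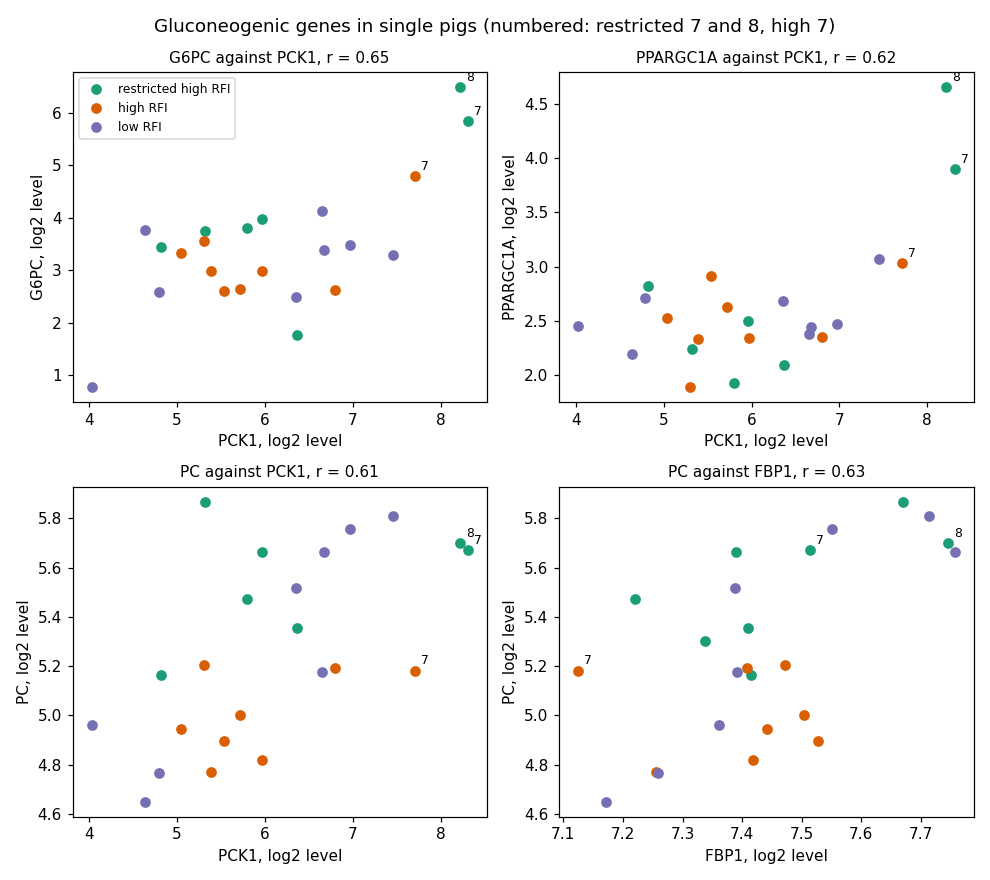
Levels of pairs of genes in single pigs (log2, brightest probes), with Pearson r over the pigs above each panel and restricted pigs 7 and 8 and high RFI pig 7 numbered. In the upper panels the numbered pigs lie at the top right, and in PC against PCK1 and PC against FBP1 the pigs spread along the whole range.

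Among 3547 named genes well above background on all arrays, the 3 whose deviations from the group means were most like those of each member were found, with no test and with the brightest probe of the member. PPARGC1A was most like HAL (r = 0.88), the histidine ammonia-lyase gene, LPIN2 (0.87) and GYS2 (0.86), the liver glycogen synthase gene, over 24 pigs. G6PC was most like SDSL (0.81), KLF15 (0.79) and ZFAND5 (0.76) over 24 pigs. PCK1 was most like ANKZF1, ETS2 and BTG2 (0.77 each) over 23 pigs. In each of the genes named for PPARGC1A, G6PC and PCK1, restricted pigs 7 and 8 held the highest 2 values of their group. High RFI pig 7 was the highest of its group in those named for PPARGC1A and G6PC and in BTG2. In ANKZF1 and ETS2 it came second after high RFI pig 8.

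PC was most like APOA5 (r = 0.79), APOA4 (0.75) and GPD1 (0.72), and FBP1 was most like GPD1 (0.73, on another probe), TCP1 (0.73) and XBP1 (0.71). MDH1 was most like DNAJB11 (0.84), ETFA (0.82) and ATP5I (0.81), and PCK2 was most like SIRT2 (0.84), ACOT8 (0.82) and NPC2 (0.82), each over 24 pigs. These are the best of several probes of a gene in most cases, and other probes of the same gene reached as little as 0.39 for SDSL, 0.37 for ETS2 and LPIN2 and 0.35 for XBP1.

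Further genes of the route and its regulation were taken from 6 companion lists of 75 genes, of which 43 had a probe that was named and kept. None of the 43 was called in any of the 3 comparisons. At an unadjusted p below 0.05 limma passed 3 (1 higher) in high minus low RFI, 1 (higher) in restricted high minus high RFI and 8 (4 higher) in restricted high minus low RFI. Over all probes 9.64%, 5.37% and 12.8% passed, and the first and second of the counts are below that share of 43. The median differences were 0.01, 0.08 and 0.08, against 0.00, -0.01 and -0.01 over all probes. The enzymes of the reversible steps shared with glycolysis (6 of 9 measured) had medians of 0.09, 0.08 and 0.10 in the same order. SLC2A2, the glucose transporter through which liver cells release glucose, was the only gene measured of the glucose release list of 3, at 0.11, 0.13 and 0.24.

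Among the 10 measured genes that bring carbon into the route, GOT1 and GOT2 had the lowest unadjusted p in restricted high minus low RFI. They encode the cytosolic and mitochondrial aspartate aminotransferases, which work beside malate dehydrogenase in the malate-aspartate shuttle. GOT1 averaged 5.60 ± 0.32 in restricted high RFI and 5.21 ± 0.18 in low RFI livers (SD, n = 8 each), a difference of 0.39 ± 0.12 (SE, limma adjusted p = 0.172). High minus low RFI gave 0.28 ± 0.12 for GOT1 (SE, limma adjusted p = 0.461). GOT2 averaged 3.96 ± 0.24 in restricted high RFI and 3.63 ± 0.25 in low RFI livers (SD, n = 8 each), a difference of 0.33 ± 0.12 (SE, limma adjusted p = 0.243). These values were close in size to those of MDH1, and none was called. Over the whole list of 10, 9 lay above 0 in restricted high minus low RFI, with a median of 0.17.

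Of the opposing glycolytic and pyruvate enzymes 3 of 10 were measured. PDHA1, a subunit of the pyruvate dehydrogenase complex, which like PC uses mitochondrial pyruvate, was at 2.64 ± 0.17 in restricted high RFI, 2.60 ± 0.25 in high RFI and 3.02 ± 0.52 in low RFI livers (SD, n = 8 each). Its difference was -0.39 ± 0.17 for restricted high minus low RFI and -0.42 ± 0.17 for high minus low RFI (SE, limma adjusted p = 0.332 and 0.415).

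Among 15 measured regulators of 25 listed, KLF15 and CEBPA, both transcription factors that act on gluconeogenic genes in mouse liver, were 2 of the 3 with an unadjusted p below 0.05 in restricted high minus low RFI. KLF15 had a lowest value of 4.35, a median of 5.46 and a highest value of 6.54 in restricted high RFI livers, against 4.45, 5.03 and 5.38 in low RFI livers. The difference was 0.58 ± 0.22 (SE, limma adjusted p = 0.251). CEBPA had 0.57, 2.70 and 3.53 in restricted high RFI livers, against 2.73, 3.39 and 3.77 in low RFI livers, a difference of -0.79 ± 0.30 (SE, limma adjusted p = 0.259). Restricted pigs 7 and 8 were the highest 2 of their group in KLF15 and the lowest 2 in CEBPA.

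Among 8 measured fasting- and insulin-responsive genes of 9 listed, PPP1R3C, a subunit that targets protein phosphatase 1 to glycogen, was the 1 with an unadjusted p below 0.05 in restricted high minus low RFI. It had a lowest value of 1.83, a median of 4.91 and a highest value of 6.01 in restricted high RFI livers, against 5.02, 5.70 and 6.13 in low RFI livers. The difference was -1.32 ± 0.45 (SE, limma adjusted p = 0.205), and restricted pigs 8 and 7 were again the extreme ones, as the lowest 2 of their group. CPT1A, which admits long-chain fatty acids to mitochondria for oxidation, averaged 3.86 ± 0.52 in restricted high RFI (SD, n = 8), 3.24 ± 0.47 in high RFI (SD, n = 7) and 3.91 ± 0.75 in low RFI livers (SD, n = 8). As in PC, the high RFI mean was the lowest, and the differences were 0.61 ± 0.29 for restricted high minus high RFI and -0.67 ± 0.29 for high minus low RFI (SE, limma adjusted p = 0.925 and 0.458).

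Gluconeogenic enzymes are richer in periportal than in pericentral hepatocytes, so markers of the zones were set beside the results. Of the 7 listed periportal markers 4 were measured (HAL, SDS, ARG1 and PCK1 itself), and their mean level ranged from 3.88 to 6.09 in restricted high RFI, 3.64 to 5.46 in high RFI and 3.06 to 5.0002 in low RFI livers. Without PCK1, which is itself a member, the mean of the other 3 ranged from 3.05 to 5.37 in restricted high RFI, 3.06 to 4.70 in high RFI and 2.74 to 4.34 in low RFI livers. Restricted pigs 8 (5.37) and 7 (5.35) had the highest 2 of these means. Of these markers HAL was also the gene most like PPARGC1A, and SDS was also in the carbon entry list. SDS varied widely, with an SD of 1.31 to 1.96 in the groups, so this mean is not separate from the values above. Of the 46 measured markers of all cell types ARG1 was the only one called, in restricted high minus low RFI, at 1.02 ± 0.20 (SE, limma adjusted p = 0.0259). In that comparison 0.229% of all probes were called. The mean level of the 6 measured pericentral markers ranged from 3.24 to 3.80 in restricted high RFI, 2.78 to 3.51 in high RFI and 2.90 to 3.62 in low RFI livers. The 6 measured markers of stellate cells and fibroblasts ranged from -0.17 to 0.50 in restricted high RFI, -0.0004 to 0.62 in high RFI and 0.32 to 0.97 in low RFI livers. Among them RGS5 differed by -1.29 ± 0.30 and COL1A2 by -0.84 ± 0.21 in restricted high minus low RFI (SE, limma adjusted p = 0.0633 and 0.0815). CPA1, the only pancreatic acinar marker measured of 4, gave -1.81 ± 0.46 in that comparison, and GLUL, a pericentral marker, gave 0.54 ± 0.22 (SE, limma adjusted p = 0.0817 and 0.287). In whole liver, fewer cells of a type and less RNA per cell cannot be told apart, and the part of these markers in the values above was not tested.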

How the data were processed

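Total RNA of 24 livers (150 ng each) was amplified and labelled with Cy3, per the labels' protocols, and hybridised to 1-colour Agilent arrays of 45220 features. The deposited intensity values are processed signals from Agilent Feature Extraction 10.7.3.1, per the file headers, and deposited 0 or 1 marks in the same files flag spots well above background, saturated or outlying. A table of 27564 features that the authors deposited holds log2 processed signals centred on the array median. The submitters' processing notes name R 2.10.0.

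Here 1417 controls and outlier spots were left out, log2 processed signals were taken minus the array's 75th percentile, and spots of a probe were averaged. A probe was kept if well above background on at least 6 of 8 arrays of at least 1 group (29665 of 43603). Probes were named through accession, gene ID or symbol and RefSeq tables of Sscrofa11.1 used for names only (11039 probes, 4661 symbols). The brightest PC probe (A_72_P444978) and the dimmer PPARGC1A probe (A_72_P404198) were assigned only by the array's text description. Limma 3.58.1 in R 4.3.3 (lmFit, eBayes, group only, all 24 arrays) tested differences, with Benjamini-Hochberg adjustment over 29665 probes. Simulated data were used to test the script. Correlations used 100000 permutations, two-sided. Tables and plots used Python 3.11.15, pandas 2.3.3, numpy 2.4.6, data.table (1.17.8) and matplotlib 3.10.9.

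Groups and pig numbers came from the labels. The 6 slides and 2 scan days each held several groups and were tried as blocks. Same-numbered pigs' deviations correlated at -0.19 to 0.42 over all probes, so the numbers were not taken as pairs. Alternatives were other background corrections, normalizations, filters, blocks, weights and left-out pigs.

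Each gene is described by its brightest kept probe. From companion lists, up to 6 genes per comparison with unadjusted p below 0.05 are named, and the 3 most alike genes per member. Members and lists were chosen with earlier results of these data known. The labels give no more on the animals' kinship, so p-values measure the spread between these pigs.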

Additional observations from a re-analysis of the deposited data

Results flagged for a closer look

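The 21 sets of 8 pigs (7 genes in 3 groups, PCK1 with 7 restricted pigs) were each checked for a pig far from the rest of its group, and chance alone would mark about 1 in 20 of them. One was marked. High RFI pig 7 had a G6PC level of 4.79, with the next pig of its group at 3.56, a gap that took up 0.563 of the group's range against a limit of 0.526 for 8 samples. The same pig had the highest PCK1 (7.71) and the highest PPARGC1A (3.04) of its group, and the lowest FBP1 (7.13) and PCK2 (5.75). Its array had 69.6% of spots well above background, within the range of its group.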

How the results depend on the processing

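The 22 gluconeogenesis probes and the 43 companion genes gave 0 calls in each of the 3 comparisons under every alternative run, as did the F test for the 22 probes. The differences of the 7 genes were recomputed as 651 values; none passed the threshold, and 58 changed sign, all in PCK1, PCK2, FBP1, PPARGC1A and G6PC. PC and MDH1 kept their sign in all 3 comparisons. Normexp background correction turned high minus low RFI to 0.12 in PCK1, 0.085 in PCK2, 0.064 in FBP1 and 0.024 in PPARGC1A, and PCK2 to 0.016 and 0.10 in the other two comparisons. In high minus low RFI, PCK1 turned to 0.072 with the slide as a block, 0.062 with the scan day as a block, 0.50 on scan day 2 alone, 0.17 without slide 3 and 0.039 as the mean over its probes. PCK2 turned there to 0.0013 with quantile normalization, 0.013 with array weights, 0.041 on scan day 2 and 0.012 as the mean over its probes, and PPARGC1A to 0.16 as the mean over its probes. On scan day 1 alone PCK2 turned to 0.20 in restricted high minus high and 0.17 in restricted high minus low RFI. FBP1 in restricted high minus low RFI turned to -0.013 with quantile normalization, -0.011 with the slide and -0.0088 with the scan day as a block, -0.045 on scan day 2, -0.017 without slide 3 and -0.018 as the mean over its probes.

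Without restricted pigs 7 and 8 and high RFI pig 7, chosen after seeing the data, high minus low RFI turned to -0.024 in G6PC and 0.034 in PCK2. Restricted high minus high RFI turned to -0.026 in PCK1, -0.025 in FBP1 and -0.0076 in PPARGC1A, and restricted high minus low RFI to -0.29 in PCK1, -0.042 in FBP1 and -0.13 in PPARGC1A. As these pigs were picked on PCK1 and were mostly restricted, the setting by itself lowers PCK1 in the restricted group. Of the 5 correlations, 2 still passed without these pigs, PCK1 with PC and PC with FBP1. With the top of the PCK1 range cut in this way, G6PC with PCK1 was 0.25, PCK1 with PPARGC1A 0.13 and G6PC with PPARGC1A -0.053. With normexp 9 pairs passed, the same 5 and 4 more. The 4 were G6PC with PC (r = 0.48), FBP1 with PPARGC1A (0.55), PCK2 with FBP1 (0.60) and FBP1 with MDH1 (0.50). PCK2 and MDH1 thus stood in passing pairs under that correction. The cause was not tested.

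Leaving out 1 pig at a time gave, for high minus low RFI, -0.29 to 0.20 in PCK1, -0.064 to 0.034 in PCK2, -0.11 to 0.37 in G6PC and -0.12 to 0.042 in PPARGC1A, for restricted high minus high RFI -0.078 to 0.020 in PCK2, and for restricted high minus low RFI -0.027 to 0.058 in FBP1. Without changing sign, restricted high minus high RFI moved to 0.15 in PCK1 without restricted pig 7 and 0.16 without pig 8, to 0.72 without high RFI pig 7 and to 0.73 without restricted pig 1. PPARGC1A moved to 0.24 there without restricted pig 7 and 0.13 without pig 8, and G6PC to 0.62 without restricted pig 8. In restricted high minus low RFI, PCK1 ranged from 0.13 to 0.72 and PPARGC1A from 0.081 (without restricted pig 8) to 0.47, and PC moved to 0.15 without low RFI pig 2. With the pig number as a replicate block, restricted high minus high RFI was 0.52 in PC (adjusted p = 0.743) and restricted high minus low RFI 0.32 in MDH1 (adjusted p = 0.206), and no call changed. Over the whole array, calls numbered 5 (normexp, scan day 1 alone) to 87 (array weights) in high minus low RFI, against 48, and 10 (scan day 2 alone) to 145 (1 pig left out) in restricted high minus low RFI, against 68, with 103 under the replicate block.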

Other observations

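Although pig numbers did not pair the arrays over all probes, same-numbered pigs deviated together in PCK1. The correlation of deviations from the group means was 0.85 between restricted high and high RFI and 0.88 between restricted high and low RFI pigs (7 pairs each), and 0.55 between high and low RFI pigs (8 pairs). Pigs numbered 7 and 8 were the highest 2 in PCK1 in each of the 3 groups. The other genes did not share this, with G6PC at 0.16, 0.37 and -0.32 and PC at 0.07, -0.07 and 0.32 for the same pairs of groups. FBP1 had -0.85 between high and low RFI pigs. The labels do not say what a pig number stands for, and these values were chosen after they were seen, out of 21 such correlations. The main limma fit and the permutations took no account of pig number, so neither did the p-values given for PCK1. With the number as a block PCK1 was not called either.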
